A study of Zea mays with 13 samples.

Results

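A total of 430 maize gene models carried H3K4me3, H3K9ac and H3K27me3 at once in immature leaves, out of 39424 gene models measured for all 3 marks (1.09%) and 43943 features in the tables. They were chosen from the measured read counts themselves. A gene counted as marked when its enrichment over whole chromatin was more than 2-fold over the 25th percentile of its library (the cut) in all 4 libraries of a mark, and it had to be marked for all 3 marks. Enrichment was the gene's share of a library's reads over its share of the whole-chromatin reads, with 0.5 counts added to each count. A gene was measured when it had at least 20 whole-chromatin counts both within the 1 kb window of its start site, the background used for H3K4me3 and H3K9ac, and over the whole gene, the background used for H3K27me3. Levels of the marks at these genes therefore describe how the genes were chosen and are given without a test.

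H3K4me3 and H3K9ac are laid down around the start of transcribed genes, the first as methylation and the second as acetylation of the tail of histone H3, whereas H3K27me3 is written by Polycomb repressive complexes and marks silenced developmental genes. In plants, as in animals, active and repressive marks can lie at the same gene, a state often called bivalent when both sit on the same nucleosomes. Chromatin immunoprecipitation followed by sequencing (ChIP-seq) of a whole tissue adds up many cells, so marks on the same nucleosome, on both copies of a gene or in different cells of the leaf cannot be told apart here. The tables give identifiers only, and 0 of the 430 were found in the gene table of a later maize assembly, so the genes are given without names, functions or positions. The tissue label could not be checked against leaf markers for the same reason.

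All libraries came from the immature wrapped leaf of inbred line B73, from plants raised in a greenhouse to the V5-V6 leaf stage under normal watering. Well-watered plants then received 75% and stressed plants 25% of disposable water for 10 days, at a salt concentration of 0.1 dS/m in both. Tissue was taken at the end of these 10 days (T0) and after 7 more days of recovery (T7), also from the well-watered plants. Each mark and group had 1 library, 12 immunoprecipitated libraries in all, and the whole chromatin, sequenced without an antibody, came from control plants at 10 days only; whether a library pools several plants is not given.

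Total counts ranged from 2793985 to 6876219 for H3K4me3, from 1152884 to 1856159 for H3K9ac and from 1612935 to 1969485 for H3K27me3. The well-watered T0 library stood apart for both active marks. Its contrast, the 95th percentile of enrichment over all genes divided by the 25th, was 40.1 for H3K4me3 against 22.4 to 23.0 in the other libraries, and 6.74 for H3K9ac against 4.50 to 4.82. For H3K27me3 the well-watered T7 library had the lowest contrast, 3.61 against 4.09 to 4.48. No group was replicated, so the printed intervals cover counting error only and leave out variation between plants and between immunoprecipitations.

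Of the 25253 genes marked by H3K4me3, 1.70% carried all 3 marks, as did 3.25% of the 13223 marked by H3K9ac and 10.2% of the 4235 marked by H3K27me3. The genes most like them were 12764 with both active marks and no H3K27me3, and 2801 with H3K4me3 and H3K27me3 and no H3K9ac. No gene had H3K9ac and H3K27me3 without H3K4me3 (a count of 0), and 29 of the H3K9ac-marked genes lacked H3K4me3. The H3K4me3 libraries thus decided no member: leaving out any of them again gave 430 genes. The number rose to between 446 and 512 when a library of H3K9ac was left out and to between 472 and 541 when a library of H3K27me3 was.

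**Figure D1:**
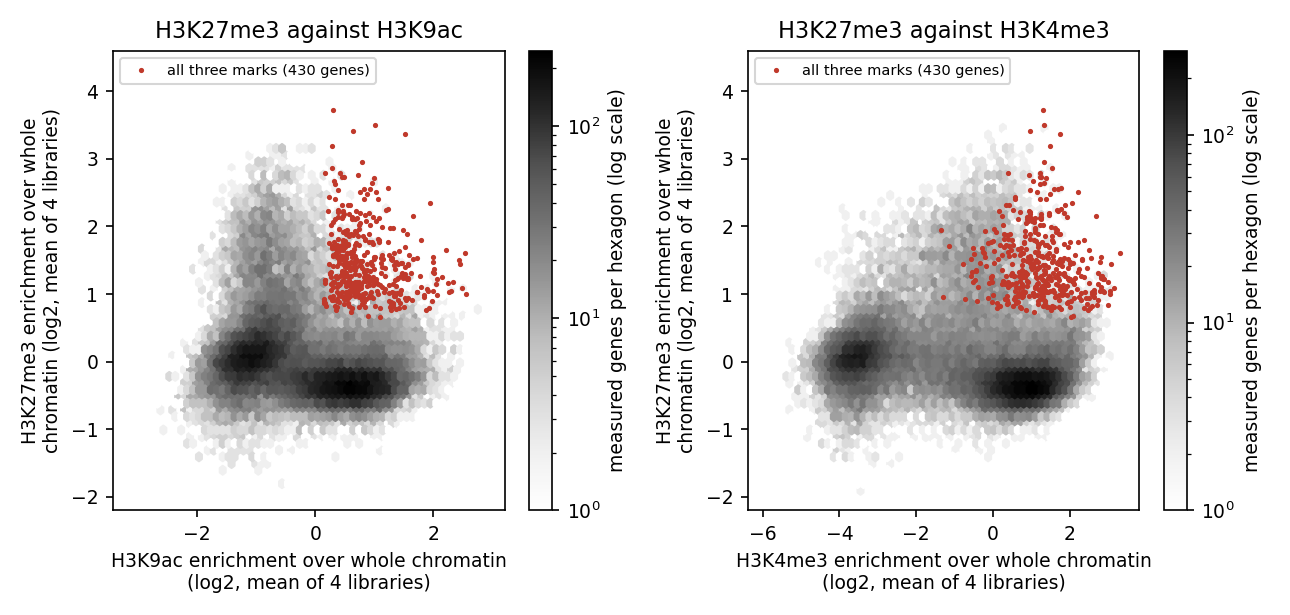
Mean log2 enrichment of H3K27me3 over whole chromatin (vertical axes) against that of H3K9ac (left) and of H3K4me3 (right), each the mean of 4 libraries; grey hexagons count all 39424 measured genes on a log scale and red points are the 430 genes with all 3 marks. On the left the red points lie in the sparse upper right, at H3K9ac means of 1.102-fold and more and H3K27me3 means of 1.58-fold and more, and on the right they mix with grey genes that lack H3K9ac.

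H3K4me3, as enrichment over whole chromatin, was high at these genes even among genes that carry it. Its mean level had a median of 2.33-fold over whole chromatin, with the 10th to 90th percentile from 1.14 to 5.04, against a median of 2.06 at the genes with both active marks and no H3K27me3 and 0.773 at those with H3K4me3 and H3K27me3 only. Ranked among all H3K4me3-marked genes, the median gene stood at percentile 76.8, and 125 of the 430 (29.1%) lay in the top 10%. Many of the genes ranked lack H3K9ac, which the 430 had to carry. In H3K4me3 counts the 430 were not above the genes with both active marks only, with medians of 722 and 909 over the 4 libraries. The whole-chromatin counts they are divided by were lower at the 430, as given below. The median level was 2.43-fold in the well-watered T0 library, 2.59 in the stressed T0 library, 2.18 in the well-watered T7 library and 2.18 in the stressed T7 library. Both T0 libraries were thus above both T7 libraries, while the cuts of these libraries were far below, at 0.175, 0.297, 0.284 and 0.286.

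H3K9ac was moderate. Its mean level had a median of 1.68-fold (10th to 90th percentile 1.26 to 2.97), close to the 1.78 of genes with both active marks and no H3K27me3, and the median gene stood at percentile 41.8 of the H3K9ac-marked genes, with 64 (14.9%) in the top 10%. By library, in the order given for H3K4me3, the medians were 1.83, 1.73, 1.69 and 1.59, against cuts of 0.816, 1.06, 1.07 and 1.03. The well-watered T0 library was the highest and the stressed T7 library the lowest.

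H3K27me3 was on the low side of its own range. Its mean level had a median of 2.54-fold (1.89 to 4.52), against 3.15 at genes with H3K4me3 and H3K27me3 only and 0.817 at genes with both active marks only. The median gene stood at percentile 34.3 of the H3K27me3-marked genes, and 27 (6.28%) lay in the top 10%. By library the medians were 2.66, 2.53, 2.36 and 2.76, against cuts of 1.51, 1.53, 1.56 and 1.52, with the lowest value in the well-watered T7 library.

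**Figure D2:**
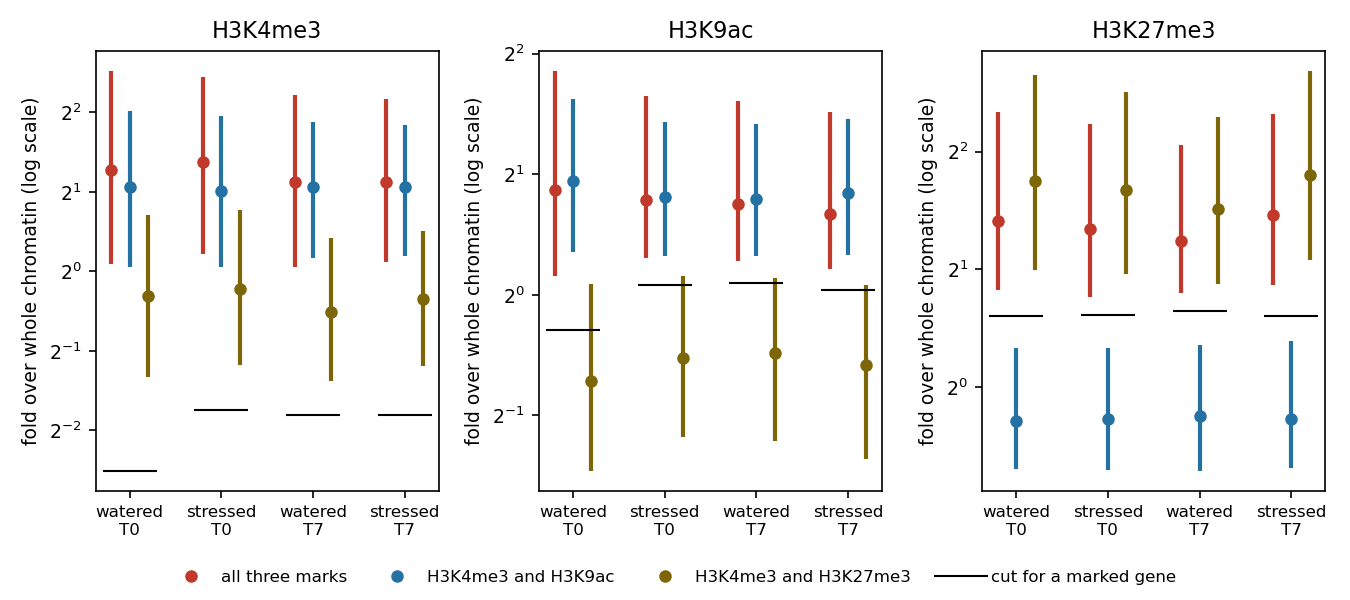
Enrichment over whole chromatin (fold, log axis) in each of the 12 libraries for the 430 genes with all 3 marks (red), the 12764 with H3K4me3 and H3K9ac (blue) and the 2801 with H3K4me3 and H3K27me3 (brown); points are medians over genes, bars the 10th to 90th percentile, and black lines the cut of the library. The red genes lie above the blue for H3K4me3, near the blue for H3K9ac and below the brown for H3K27me3.

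Across the 430 genes the mean levels of H3K4me3 and H3K9ac had a Spearman correlation of 0.74, in which both marks share the same whole-chromatin denominator. H3K27me3 had weak values of -0.13 with H3K4me3 and -0.18 with H3K9ac. Over all 39424 measured genes the same 3 values were 0.88, -0.23 and -0.28.

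As a share of each library's reads, the 430 genes took 1.89%, 1.96%, 1.70% and 1.68% of H3K4me3 (well-watered T0, stressed T0, well-watered T7, stressed T7), with exact 95% binomial intervals no wider than 1.94 to 1.97. They took 1.42%, 1.34%, 1.29% and 1.23% of H3K9ac and 1.25%, 1.15%, 1.03% and 1.24% of H3K27me3. These counts are summed over windows that can share reads. A single gene with 6645 whole-gene counts of whole chromatin, Zm00001d020644, which was named after its values were seen, held 2007, 2063, 1608 and 2030 of the H3K27me3 counts; without it the shares were 1.14%, 1.04%, 0.935% and 1.14%. The well-watered T7 library had the lowest share with and without it.

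The genes furthest above the cuts show what the state looks like in counts. Zm00001d047442 was at least 1.45 log2 units above the cut in all 12 libraries. It had 298, 152, 148 and 205 H3K4me3 counts, 88, 58, 44 and 39 H3K9ac counts and 16, 20, 20 and 21 H3K27me3 counts, on 30 whole-chromatin counts at the start site and 23 over the gene. Mean levels were 4.16-fold, 3.84-fold and 5.08-fold, so all 3 marks were well above background in every library. Zm00001d002562 had mean levels of 6.41-fold, 3.14-fold and 4.46-fold. Zm00001d035457 had 3.37-fold for H3K4me3, 2.89-fold for H3K9ac and 10.3-fold for H3K27me3, with H3K27me3 counts of 39, 44, 37 and 62 on 26 whole-gene counts of whole chromatin. Zm00001d012551, Zm00001d046786 and Zm00001d048703 followed, with smallest margins of 1.105, 0.96 and 0.95 log2 units.

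The highest single levels lay at other genes. H3K4me3 reached 12.1-fold, 13.1-fold, 7.98-fold and 7.57-fold at Zm00001d049016 and 9.86-fold, 9.62-fold, 8.11-fold and 8.23-fold at Zm00001d042007. Both genes were higher at T0 than at T7 in both waterings, the second by less. H3K9ac was highest at Zm00001d029287 (mean 5.91-fold) and at Zm00001d049016 (5.82-fold), so the same gene led for H3K4me3 and came next for H3K9ac. H3K27me3 was highest at Zm00001d027409, at 15.4-fold, 12.3-fold, 13.1-fold and 12.2-fold, and at Zm00001d038442, at 13.02-fold, 10.2-fold, 9.12-fold and 13.4-fold. Zm00001d027409 was near the cut for H3K9ac, with a mean of 1.24-fold.

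Many genes lay close to a cut. The smallest margin over the 12 libraries belonged to H3K27me3 at 221 genes, to H3K9ac at 207 and to H3K4me3 at 2, and it was at most 0.25 log2 units (1.19-fold) at 240 genes. At 56 genes it was over 0.5 and at 4 over 1. The genes just inside were Zm00001d040173, Zm00001d039615 and Zm00001d003333, at 1.56-fold, 1.53-fold and 1.57-fold for H3K27me3 in the library that decided, against cuts of 1.56, 1.53 and 1.56. Just outside were Zm00001d033347 and Zm00001d037221, with H3K9ac of 1.07-fold and 1.03-fold at cuts of the same rounded size, and Zm00001d032264, with H3K27me3 of 1.53-fold. More genes lay just below a cut than just above it. Among genes with both active marks, 245 were up to 0.25 log2 units below the H3K27me3 cut in their lowest library and 147 as much above it, and among genes with H3K4me3 and H3K27me3, 198 were as much below the H3K9ac cut and 135 above. When the counts of 4 libraries were pooled, the lower exact 95% bound of enrichment was above the cut of the pooled counts at all 430 genes for H3K4me3, at 346 for H3K9ac, at 300 for H3K27me3 and at 237 for all marks together.

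The 430 genes shared low counts of whole chromatin. At the start site they had a median of 49 counts (21 to 93), against 67 over all measured genes, 68 at genes with both active marks only and 56 at genes with H3K4me3 and H3K27me3 only, and 401 of the 430 (93.3%) were below the median of all measured genes. The share of measured genes that had all 3 marks was 4.95% at 20 to under 30 counts, 6.30% at 30 to under 40, 3.70% at 40 to under 50, 1.804% at 50 to under 60 and 0.307% at 60 or more. In the same bands H3K9ac marked 26.7%, 36.4%, 33.9%, 33.5% and 33.5% of the measured genes and H3K4me3 marked 42.8%, 61.2%, 69.0%, 68.7% and 62.7%. H3K27me3 marked 13.4%, 21.1%, 24.0%, 19.2% and 6.43%. Whole-chromatin counts are the denominator of the rule that chose the genes, and their part in the membership was not tested. With a minimum of 50 whole-chromatin counts, 165 genes had all 3 marks.

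The 430 genes were also low in whole-gene counts, the denominator of the rule for H3K27me3. All 3 marks were found at 2.57% of measured genes with 20 to under 50 such counts and at 0.139% of those with 400 or more. The part of these counts in the membership was not tested. Whole-gene counts of whole chromatin had a median of 64 against 169 over all measured genes and 277 at genes with both active marks only. The ratio of whole-gene to 1 kb counts, which stands in for length, had a median of 1.33 at the 430 genes, 1.44 at genes with H3K4me3 and H3K27me3 only, 4.05 at genes with both active marks only and 2.60 over all. It was under 1 at 116 genes (26.98%, against 19.7% of all measured genes) and from 1 to 2 at 198 (46.0%, against 21.3%). It was 4 or more at 44 (10.2%, against 33.8%). The median thus lay nearer to that of the other H3K27me3-marked genes than to that of the genes with both active marks only. Both counts in the ratio are denominators of the rule, so it does not measure length apart from the choice of genes. With whole-gene counts as the background for all marks, 1868 genes had all 3 marks, and 374 of these were among the 430 (87.0% of the 430, 20.02% of the 1868). Of the genes lost, 54 were no longer marked by H3K9ac and 17 no longer by H3K4me3, some by neither.

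**Figure D3:**
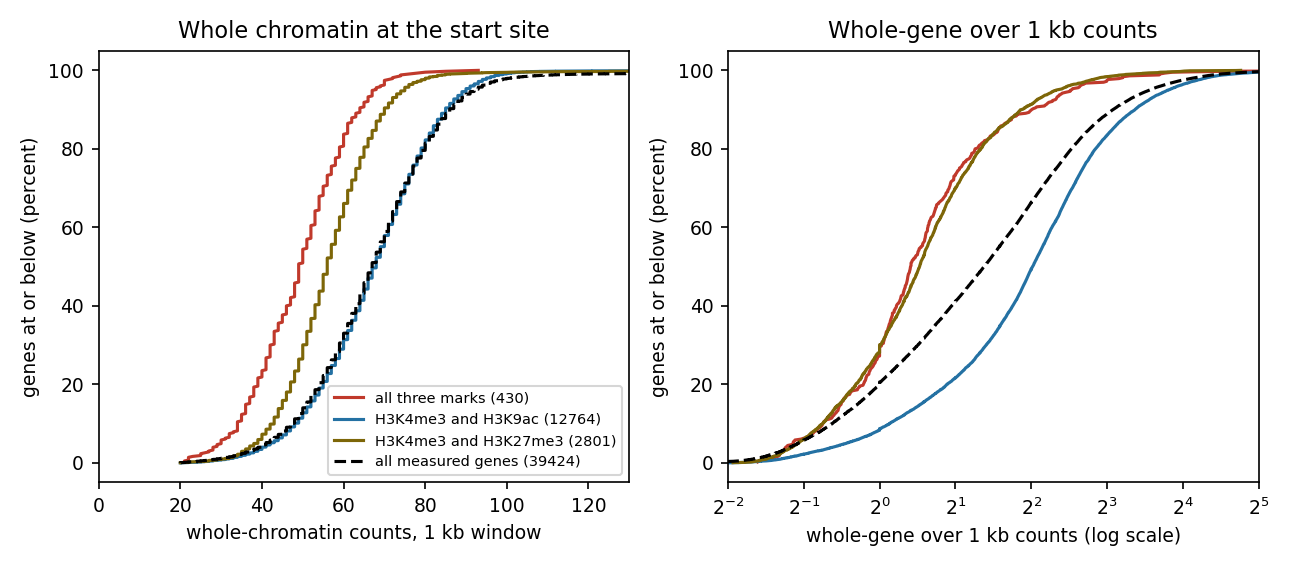
Cumulative percent of genes (vertical axes) by whole-chromatin counts in the 1 kb window (left) and by the ratio of whole-gene to 1 kb counts on a log axis (right), for the 430 genes with all 3 marks (red), both comparison sets and all measured genes (dashed). The red curve is furthest left on the left panel (median 49 counts) and lies with the H3K4me3 and H3K27me3 genes on the right panel (medians 1.33 and 1.44).

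Identifiers that follow each other can share a start site. Among the 430 there were 9 such pairs, and in 5 of them the summed H3K4me3 counts and the summed H3K9ac counts of both members were within 10% of each other. Zm00001d046053 and Zm00001d046054 had the same counts in every library of both active marks, 189, 92, 131 and 166 for H3K4me3 and 54, 64, 26 and 36 for H3K9ac, so these pairs cannot be counted as separate observations. Counting such pairs once leaves 425.

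The first comparison asked how drought at the end of the stress left the marks at these genes. TMM factors from the 4 libraries of each mark scaled the ratios, and a gene was counted as higher or lower when its ratio was at least 1.5-fold, its exact binomial interval, at an error of 0.1%, left out 1 and it had at least 40 counts over the 4 libraries. All 430 genes passed this filter for both active marks and 411 for H3K27me3. H3K4me3 at T0 was higher in the stressed library at 12 of the 430 (1.24% of all 35654 tested features were) and lower at 4 (0.726%), with a median log2 ratio of 0.01 against 0.01 over all features. The split was 12 and 8, with a median of -0.04, when the low-count filter was dropped, 14 and 1 with total counts as the scale, 16 and 1 after a smooth trend of the ratio on enrichment was taken out (detrending) and 15 and 2 after detrending on whole-gene enrichment.

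Among the genes with more H3K4me3 after stress was Zm00001d040979. In CPM (TMM-scaled counts relative to the size of the library) it had 11.2 in the well-watered T0 and 30.4 in the stressed T0 library. At T7 it had 18.6 in the well-watered and 15.8 in the stressed library. The stressed T0 value stood above the other libraries, at a log2 ratio of 1.44 (95% interval 0.97 to 1.91) on 74 and 84 counts. Zm00001d020332 had 29.3, 70.6, 43.2 and 32.7 CPM, again highest in the stressed T0 library (1.27, 0.97 to 1.56). The lower genes differed less. Zm00001d045463 had 27.5 in the well-watered and 15.9 in the stressed library (-0.78, -1.30 to -0.31), and no longer met the rule after detrending on enrichment (-0.73). Zm00001d039218 had 57.6 and 33.7 (-0.77, -1.12 to -0.44).

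H3K9ac at T0 was higher at 1 of the 430 genes (0.441% of 41294 features) and lower at 7 (0.831%), with a median log2 ratio of -0.10. This split went the other way after detrending on enrichment, 4 higher and 1 lower with a median of 0.10, and was 1 and 3 with total counts and 3 and 6 after detrending on whole-gene enrichment, so no direction is given to it. The higher gene was Zm00001d020332 again, with 32.9 CPM in the well-watered T0, 60.8 in the stressed T0, 33.2 in the well-watered T7 and 31.6 in the stressed T7 library (0.88, 0.40 to 1.38). Its H3K9ac and H3K4me3 thus stood highest in the same group, while its H3K27me3 counts of 34, 38, 26 and 37 gave a T0 ratio of 0.21 (-0.50 to 0.92). Zm00001d045048 had 30.7 and 13.3 CPM on 55 and 21 counts (-1.19, -2.01 to -0.46), and Zm00001d004164 had 34.1 and 15.2 (-1.15, -1.91 to -0.46). Both fell short of the rule after detrending on enrichment.

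H3K27me3 at T0 was higher at 0 of the 411 genes (0.109% of 33860 features) and lower at 1 (0.103%), with a median of -0.11. The gene was Zm00001d038683, with 40 counts in the well-watered and 14 in the stressed T0 library and 27 and 30 at T7 (-1.43, -2.46 to -0.56), and it did not meet the rule after detrending on enrichment. The H3K9ac and H3K27me3 libraries compared here also chose the genes, as each had to pass the cut in all 4, and nothing is read from these counts beside their background.

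Few of the genes differed between waterings after recovery. H3K4me3 at T7 was higher at 1 (0.0982% of all features) and lower at 1 (0.0926%), with a median of -0.03 that turned to 0.03 after detrending on enrichment. Zm00001d007908 had 17.4 CPM in the well-watered and 28.4 in the stressed T7 library (0.70, 0.30 to 1.13), after 28.3 and 30.4 at T0, so its low value was that of the well-watered T7 library. Zm00001d022437 had 33.8 and 12.8 (-1.40, -1.83 to -0.99), after 25.8 and 16.7 at T0, and lay lower in stressed plants at both times. H3K9ac was higher at 0 (0.0775%) and lower at 1 (0.116%), Zm00001d027727, on 52 and 20 counts (-1.24, -2.08 to -0.49).

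H3K27me3 at T7 was higher in previously stressed plants at 5 of the 411 genes (0.425% of all features) and lower at 0 (0.13%). The median log2 ratio was 0.24, and 299 of the 411 (72.7%) lay above 0, against a median of -0.01 and 49.2% over all features. Genes with H3K4me3 and H3K27me3 only had a higher median, 0.30, with 80.9% above 0. The H3K27me3 libraries compared here also chose both sets of genes, so these differences from all features are only a description. Zm00001d028744 had 104 CPM in the well-watered T0, 74.2 in the stressed T0, 50.7 in the well-watered T7 and 93.0 in the stressed T7 library (0.87, 0.49 to 1.27). Zm00001d039907 had 24.8, 30.8, 18.4 and 41.1 (1.14, 0.53 to 1.83). At both genes the well-watered T7 library was the lowest, and over the 411 genes it was the lowest at 186 (45.3%, against 27.2% of all features and 55.5% of the tested genes with H3K4me3 and H3K27me3 only). That library had the lowest H3K27me3 contrast of the 4, and the part of contrast in these ratios was not tested. After detrending on enrichment the median turned to -0.03 and 1 gene remained higher at T7, Zm00001d028744 (0.64).

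**Figure D4:**
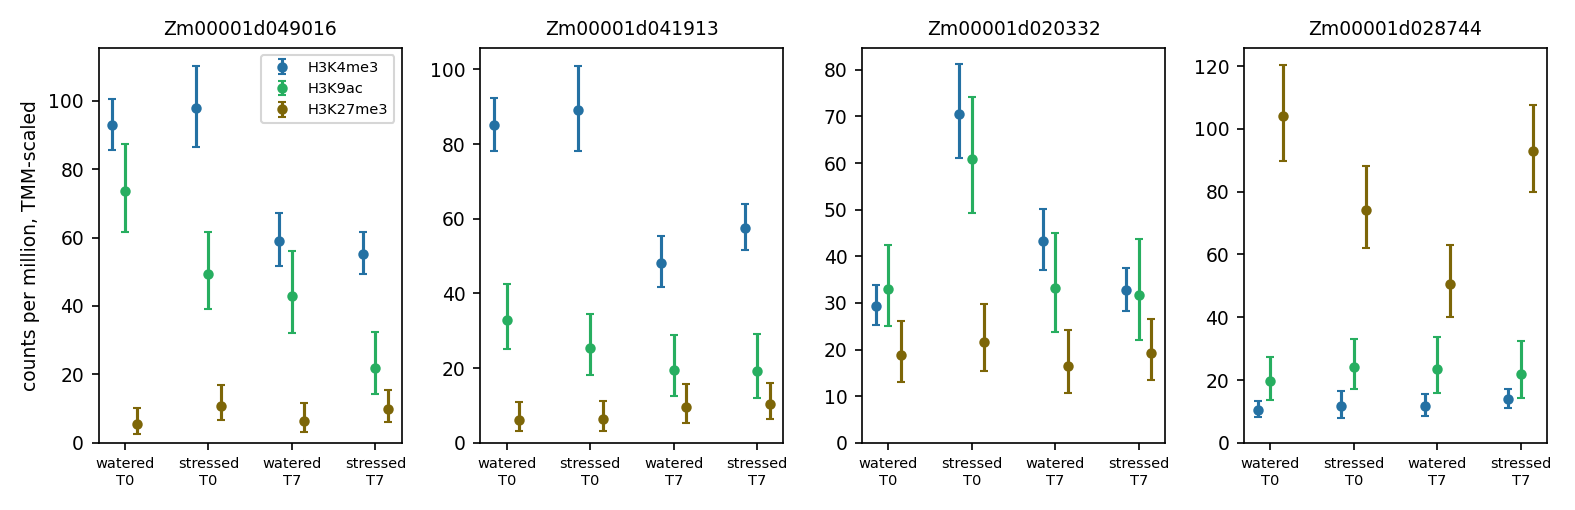
Counts CPM, TMM-scaled (vertical axes, each from 0), of H3K4me3 (blue), H3K9ac (green) and H3K27me3 (brown) in the 4 groups for 4 genes with all 3 marks; bars are 95% intervals of the count, without variation between plants. Zm00001d049016 and Zm00001d041913 were lower in H3K4me3 at T7, Zm00001d020332 stood highest in H3K4me3 and H3K9ac in the stressed T0 library, and Zm00001d028744 was lowest in H3K27me3 in the well-watered T7 library.

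A drought effect common to T0 and T7 was tested by fitting all 4 libraries of a mark with additive terms for watering and time, the design that leaves 1 residual degree of freedom per gene. For H3K4me3, edgeR's quasi-likelihood test with Benjamini-Hochberg adjustment called 0 of the 430 genes for watering (0.0028% of all features were called). Its unadjusted p was under 0.05 at 36 genes (8.37%, against 6.62% of all features). DESeq2 called 0 (0% of all features), with 2 genes at an unadjusted p under 0.05. The smallest adjusted p was that of Zm00001d022437, with a log2 change of -1.06 ± 0.20 (SE, edgeR, adjusted p = 0.0613). It was called with DESeq2's size factors in edgeR (adjusted p = 0.0265), without the filter on low counts (0.00148) and after detrending on enrichment (0.00291). For watering, edgeR called 0 of the genes for H3K9ac (0.00242% of all features) and 0 for H3K27me3 (0% of all features). Its unadjusted p was under 0.05 at 23 genes for H3K9ac (5.35%, against 4.01% of all features). For H3K27me3 it was so at 12 (2.92%, against 3.54%). The H3K9ac and H3K27me3 libraries also chose the genes, and nothing is read from these shares. For both marks DESeq2 called 0 genes (0% of all features) and had 0 at an unadjusted p under 0.05.

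Time was the comparison in which H3K4me3 was called at these genes. The H3K4me3 libraries had decided no member, so their ratios were not what chose the genes, although H3K4me3 levels go with the H3K9ac levels that did. Over the 7 days of recovery H3K4me3 fell at 60 of the 430 genes (14.0%) and rose at 0 (edgeR quasi-likelihood test on all 4 libraries, Benjamini-Hochberg adjusted p under 0.05), where 3.03% of all features fell and 0.869% rose. The falls of the called genes ran from 0.29 to 0.94 on the log2 scale. Of the 12764 genes with both active marks and no H3K27me3, 653 fell and 98 rose, and of the 2801 genes with H3K4me3 and H3K27me3 only, 113 fell and 1 rose. The median log2 change was -0.21 at the genes with all 3 marks, -0.21 at those with H3K4me3 and H3K27me3 only, -0.02 at those with both active marks only and 0.00 over all features. Both sets with H3K27me3 thus had the same median, and the larger share of calls among genes with all 3 marks came with more counts per gene, a median of 722 over the 4 libraries against 285. Among genes with 500 and under 1000 counts, 32 of 219 genes with all 3 marks fell (14.6%), 33 of 279 with H3K4me3 and H3K27me3 only (11.8%) and 185 of 6095 with both active marks only (3.04%); the difference between these shares was not tested.

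The call depended on the tool and on the scale. DESeq2 called 0 of the 430 genes and 0% of all features. At 21 of the 430 its unadjusted p was under 0.05, where edgeR had 162 (37.7%, against 16.5% of all features). The share of all features for DESeq2's unadjusted p was not worked out. After detrending on enrichment 33 genes were called, 30 of them lower and all of these 30 among the 60, against 3.30% of all features, and the median log2 change was -0.11. After detrending on whole-gene enrichment 7 genes were called lower, all among the 60, against 0.522% of all features, and the median was -0.06.

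The single waterings were also compared by the size rule, in comparisons that share no library. In well-watered plants H3K4me3 was lower at T7 at 25 of the 430 genes (1.74% of all features) and higher at 0 (1.3%), with a median of -0.20. In stressed plants it was lower at 40 (1.74%) and higher at 0 (0.522%), with a median of -0.23. The ratio was below 0 in both waterings at 283 genes (65.8%) and above 0 in both at 32 (7.44%). The number lower by this rule in both was 9. For these joint counts the share of all features was not worked out. In well-watered plants the ratio was above 0 at 23.7% of the genes with all 3 marks. It was so at 23.7% of those with H3K4me3 and H3K27me3 only and at 50.1% of all features. In stressed plants the shares above 0 were 17.9%, 29.4% and 47.4%. Contrast was 40.1 at T0 and 23.0 at T7 in the well-watered libraries and 22.8 and 22.4 in the stressed ones; its part in these ratios was not tested. After detrending on enrichment the medians were -0.07 in well-watered and -0.17 in stressed plants. After detrending on whole-gene enrichment they were -0.03 and -0.09. The counts were then 8 lower and 5 higher in well-watered plants (2.45% of all features were either), a share near the background, and 20 and 2 in stressed plants (1.83%).

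**Figure D5:**
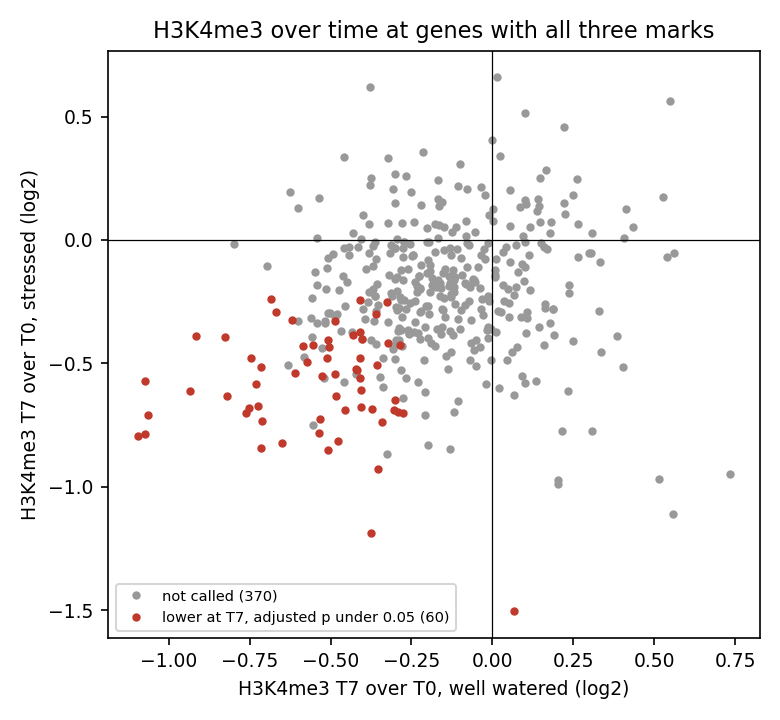
Log2 ratio of H3K4me3 at T7 over T0 in stressed plants (vertical axis) against that in well-watered plants (horizontal axis) for the 430 genes with all 3 marks; the 60 genes called lower by edgeR are red and the other 370 grey. Most points, 283, lie below 0 on both axes, and 1 called gene lies at 0.07 and -1.504.

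The fall with the smallest adjusted p was at Zm00001d049016, also the gene with the highest mean H3K4me3. It had 92.8 CPM in the well-watered T0, 97.7 in the stressed T0, 59.1 in the well-watered T7 and 55.2 in the stressed T7 library, on 614, 270, 238 and 333 counts. Both T0 values were above both T7 values, and the log2 change was -0.73 ± 0.10 (SE, edgeR, adjusted p = 1.36e-05). Its ratios were -0.65 in well-watered and -0.82 in stressed plants. After detrending on enrichment they were -0.29 and -0.48, and neither met the size rule. After detrending on whole-gene enrichment they were -0.45 and -0.64, and only the latter met it. Zm00001d041913 had 85.1, 89.0, 48.2 and 57.5 CPM (-0.73 ± 0.10, edgeR adjusted p = 2.44e-05). Zm00001d016719 had 59.3, 68.8, 36.0 and 38.3 (-0.78 ± 0.12, edgeR adjusted p = 0.000121). These 3 genes were named for the smallest adjusted p, so T0 and T7 values that do not overlap come with that choice.

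Other genes were low at T7 in 1 watering more than in the other. Zm00001d017422 had 32.05 CPM in the well-watered T0, 76.7 in the stressed T0, 33.5 in the well-watered T7 and 27.03 in the stressed T7 library, so that its log2 ratio of -1.504 in stressed plants (-1.81 to -1.20) came with a ratio of 0.07 in well-watered plants. Zm00001d025699 had 25.8, 42.3, 19.9 and 18.6, again highest in the stressed T0 library (-1.19, -1.58 to -0.80, in stressed plants). Zm00001d040460 and Zm00001d040461 follow each other and have nearly the same counts. They went from 44.7 to 20.9 and from 42.0 to 19.9 CPM in well-watered plants (-1.095 and -1.07). Counting such pairs once, 59 genes were called lower.

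H3K9ac at the 60 genes with falling H3K4me3 was more often lower too. It was below 0 at 46 of the 60 in well-watered plants (median -0.43), against 230 of the other 370 (median -0.12), and at 44 of the 60 in stressed plants (median -0.24), against 215 of the 370 (median -0.06). H3K27me3 was below 0 at 30 of 56 tested genes in well-watered plants (median -0.04), against 243 of the other 355 (median -0.20), and at 25 of 56 in stressed plants (median 0.10), against 117 of the 355 (median 0.12). It was thus below 0 less often at the falling genes in well-watered plants and more often in stressed plants. Across the 411 genes the Spearman correlation of the H3K4me3 and H3K27me3 ratios over time was -0.24 in well-watered plants (0.03 over all features) and 0.01 in stressed plants, which is weak and given as a description. These are counts over genes of the same libraries and were not tested.

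Over all 430 genes, H3K9ac was lower at T7 at 9 in well-watered plants (0.714% of all features) and higher at 0 (0.722%), and lower at 3 in stressed plants (0.177%) and higher at 0 (0.131%), with medians of -0.15 and -0.09. After detrending on enrichment the well-watered split was 2 and 2, with a median of 0.05, and with total counts it was 7 lower and 1 higher. In the additive fit edgeR called 0 genes for H3K9ac over time (0% of all features). Its unadjusted p was under 0.05 at 36 (8.37%, against 4.54% of all features). The H3K9ac libraries also chose the genes, and nothing is read from these counts and shares beside their background. DESeq2 called 0 (0% of all features) and had 2 at an unadjusted p under 0.05. Zm00001d004375 had 58.6 CPM in the well-watered T0 and 25.1 in the well-watered T7 library (-1.21, -1.85 to -0.63), and Zm00001d052513 had 38.0 and 16.2 (-1.20, -2.03 to -0.49). In stressed plants Zm00001d049016 went from 49.4 to 21.9 (-1.15, -1.88 to -0.50) and Zm00001d039967 from 69.0 to 33.3 (-1.04, -1.62 to -0.50).

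H3K27me3 was lower at T7 in well-watered plants at 13 of the 411 genes (0.665% of all features) and higher at 0 (0.0975%), with a median of -0.17, and in stressed plants lower at 0 (0.0768%) and higher at 0 (0.121%), with a median of 0.11. Zm00001d043458 went from 54.6 to 25.3 CPM in well-watered plants (-1.097, -1.68 to -0.56), and Zm00001d028744 from 104 to 50.7 (-1.04, -1.44 to -0.66). The well-watered T7 library that gives the low values also has the lowest contrast, and the part of contrast in these ratios was not tested. After detrending on enrichment 1 gene was lower and the median turned to 0.05. The additive fit called 0 genes for H3K27me3 over time (edgeR, 0% of all features). The unadjusted p of edgeR was under 0.05 at 16 (3.89%, against 3.92% of all features). The H3K27me3 libraries also chose the genes, and nothing is read from these counts and shares beside their background. DESeq2 called 0 (0% of all features) and had 0 at an unadjusted p under 0.05.

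An active mark and H3K27me3 moved past the rule in opposite directions at 0 genes in each of the 4 comparisons. That count says little, because few genes met the rule for H3K27me3 at all. They were 1 at T0, 5 at T7, 13 over time in well-watered plants and 0 over time in stressed plants. Both active marks met the rule together at 3 genes: Zm00001d020332, higher at T0 under stress and lower over time in stressed plants, Zm00001d049016, lower over time in both waterings, and Zm00001d052256, lower over time in well-watered plants. At Zm00001d052256 H3K4me3 went from 60.5 to 40.2 CPM (-0.59, -0.86 to -0.32) and H3K9ac from 54.7 to 26.7 (-1.02, -1.65 to -0.45), while H3K27me3 had a ratio of -0.23 (-0.92 to 0.43), which was 0.15 after detrending on enrichment. After detrending on enrichment it no longer met the rule for either mark, and Zm00001d049016 did so in stressed plants for H3K9ac alone. In all, 90 of the 430 genes met the rule for some mark in some comparison, as did 8.34% of all features tested for 1 mark or more, and 340 met it for none. Between waterings, 24 met it for some mark at T0 (2.97% of all features) and 8 at T7 (0.785%). The number that met it for the same mark in 1 direction at both times was 0. The share of all features with such joint calls, for marks together or for both times, was not worked out. Part of these counts comes from the H3K9ac and H3K27me3 libraries that chose the genes.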

How the data were processed

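Raw read counts per gene were deposited, without normalization per the labels, for ChIP-seq libraries of 3 histone marks and whole chromatin. CASAVA 1.8 and Bowtie2, with B73 RefGen_v4 as the genome, are named in the submitters' processing notes. The counting program, the count windows of the marks and the handling of duplicates were not given in the sources used here; that the active marks belong to a window at the start site is an assumption, and whole-gene counts were tried. Total counts per library, from 1152884 to 6876219, set the precision, and intervals cover counting error only.

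The members, the lists and the tests were chosen with earlier results of these data known. Ratios between single libraries used TMM scaling (edgeR 4.0.16), a prior of 0.5 counts and exact conditional binomial intervals, on the whole table. The additive fits used edgeR's quasi-likelihood test (limma 3.58.1, R 4.3.3) with Benjamini-Hochberg adjustment at 0.05 over all features with at least 40 counts over the 4 libraries, and DESeq2 1.42.0 as the alternative. Other steps used Python 3.11.15, scipy 1.17.1 and statsmodels 0.14.6. Both procedures were run on simulated counts that hold no differences in contrast between libraries. The counts for the size rule had counting error only, and those for the additive fit the same extra variation at every gene. These runs do not measure error between plants or immunoprecipitations. In the additive fit the difference between the drought effects of T0 and T7 is the error, so genes with like changes in both waterings are favoured.

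Genes were named by rule: the 6 furthest above the cuts, 3 on each side of a cut, the 2 highest per mark, the 2 largest ratios in each direction per comparison, the 3 smallest adjusted p-values per call and direction, and genes past the rule in several marks. Alternatives were total counts, DESeq2's size factors, no filter, a lowess trend on enrichment taken out (detrending) and other cuts for the members. The trend on whole-gene enrichment and the genes with a firm lower bound were added after seeing the data.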

Additional observations from a re-analysis of the deposited data

How the results depend on the processing

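The number of genes with all 3 marks depended most on the rule that defines it: 1868 with whole-gene counts as background for the active marks, 1502 with a cut of 1.5-fold, 39 with 3-fold, 165 with a whole-chromatin minimum of 50 and 64 with the 50th percentile as background level. For H3K4me3 over time the additive fit called 33 genes after detrending on enrichment (3.30% of all features). It called 7 after detrending on whole-gene enrichment (0.522%), and DESeq2 called 0 (0%). The main fit called 3.90% of all features. It called 140 of the 1865 tested genes of the larger set with whole-gene background. Of the 237 genes above the cuts by their lower bound it called 35. For watering the additive fit called 1 with DESeq2's size factors (0.00561% of all features), without the filter (0.0296%) and after detrending on enrichment (0.00561%). In well-watered plants 38 genes were past the size rule for H3K4me3 over time without the filter (3.26% of all features). Detrending on enrichment left 16 (1.97%) and detrending on whole-gene enrichment 13 (2.45%). Of the 237 genes, 15 were past it in the main setting (3.05%). In stressed plants the counts were 22 after detrending on whole-gene enrichment (1.83%) and 19 of the 237 in the main setting (2.26%). H3K9ac gave 4 at T0 scaled by total counts (1.11% of all features). With the enrichment trend taken out it gave 5 at T0 (0.591%) and 4 over time in well-watered plants (0.545%). H3K27me3 after either detrending gave 0 at T0 (0.162% of all features), 1 at T7 (0.183%) and 1 over time in well-watered plants (0.227%). The larger set had 1865 genes tested for H3K4me3, 1847 for H3K9ac and 1767 for H3K27me3. Its H3K4me3 counts at T0, at T7, over time in well-watered and over time in stressed plants were 38, 9, 122 and 93. Over all features the shares were 1.97%, 0.191%, 3.05% and 2.26%. In the same order H3K9ac gave 13, 2, 22 and 7 (1.27%, 0.194%, 1.44% and 0.308% of all features). H3K27me3 gave 5 at T0 (0.213%), 10 at T7 (0.555%) and 6 over time in stressed plants (0.198%). These sets differ in size by construction; for the other settings the cause was not tested. The other counts, 78 under planned and 12 under added settings, stayed within 1.5 times the main one, and medians of the members that changed sign are given beside their comparisons; that of H3K4me3 at T7 was also 0.02 after detrending on whole-gene enrichment. No paired analysis was possible because each mark and group has 1 library and the labels carry no replicate numbers that pair samples. Counting error limits H3K9ac and H3K27me3 most, with medians of 167 and 123 counts per gene over 4 libraries against 722 for H3K4me3.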
